A study of Mus musculus with 8 samples.

Results

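Forepaw skin injected with PACAP (pituitary adenylate cyclase-activating polypeptide) was compared between mice that lack the PACAP receptor PAC1R and WT mice. Each array carried a PACAP sample in one dye and a vehicle sample in the other, and the PACAP channel was read on its own. This gave 4 PACAP samples of the 8 RNA samples in the series. They were 1 WT sample and 1 KO sample at 30 min after the injection, and 1 of each at 60 min, so that each genotype had 2 samples. The KO mice were Adcyap1r1 -/- and the WT mice C57BL/6, and the labels give the strain C57BL/6J for all samples. All mice were 9 to 10 weeks old and anaesthetised, and received 5 µL into the centre of the footpad, within the skin. The injected solution was saline with 0.1% BSA, holding 1e-07 mol/L PACAP or none. The study's methods give the number of mice injected per genotype and say that skin samples were ground one by one, but neither they nor the labels say how these mice were divided among the RNA samples or whether both solutions went into the same animal. The labels do not give the genetic history of the KO line, and they name no restriction of the KO to a tissue. The 2 slides held 1 genotype each, and in every value below the slide cannot be told apart from the genotype.

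PACAP is a neuropeptide released from nerve endings. PAC1R, encoded by Adcyap1r1, is its selective receptor and couples to adenylate cyclase and phospholipase C, while VPAC1 (Vipr1) and VPAC2 (Vipr2) bind PACAP and the related peptide VIP about equally well. In skin these receptors are found on sweat glands, vessels, nerves and immune cells. The comparison asks how the skin of mice without PAC1R differed from WT skin at the same time after the same injection.

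Each level is a normalised log2 intensity, the brightness of a probe in the PACAP channel, averaged over the pair of arrays with swapped dyes. A step of 1 on this scale is a 2-fold difference, and levels were not compared between genes because probes differ in how strongly they bind. In the PACAP channel 58.1% to 90.8% of an array's spots stood well above background, and 25969 probes for 20348 gene names were tested. The palm skin was recognisable in all samples: Krt14, a keratin of basal epidermis, lay between 15.47 and 15.82, and Krt9, a keratin of palm and sole, between 15.03 and 15.46. The 10 added RNA spike-in probes differed between KO and WT by -0.33 to 0.21 at 30 min and by 0.04 to 0.23 at 60 min. The genotype difference spread more widely at 30 min, with an SD over all tested probes of 0.45, than at 60 min, with 0.23. The median over 2258 genes of the probe nearer the 5′ end minus that nearer the 3′ end, a sign of RNA integrity, was -1.08 in the WT sample at 30 min and between -0.996 and -0.927 in the other samples. The part of this difference in the results was not tested.

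KO and WT were compared with limma, a linear model with time as a covariate, and 0 of 25969 probes had a Benjamini-Hochberg adjusted p below 0.05. At an unadjusted p below 0.05 there were 1434 probes, 5.52% of those tested. With 2 samples a genotype, an exact permutation test of a single gene cannot go below 0.333. The probes are therefore described by size: 29 probes were at least 2-fold higher in KO at both times, 0.112% of those tested, and 6 were at least 2-fold lower, 0.0231%. Other processing moved both counts: with the software's own processed signals 944 probes passed the adjusted p and 337 the 2-fold rule. In the main processing the adjusted p of the 35 probes lay between 0.571 and 0.707, and their standard errors between 0.15 and 0.55. Paired arrays of 1 RNA sample differed by a median of 0.12 for these probes, and by at most 0.75. The members nearest to the line were Klk1b24 with -1.42 and -1.003 and Tob1 with -1.90 and -1.01 just inside. Klk6 with 1.57 and 0.99 and Clec4n with 1.05 and 0.97 lay just outside.

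**Figure D1:**
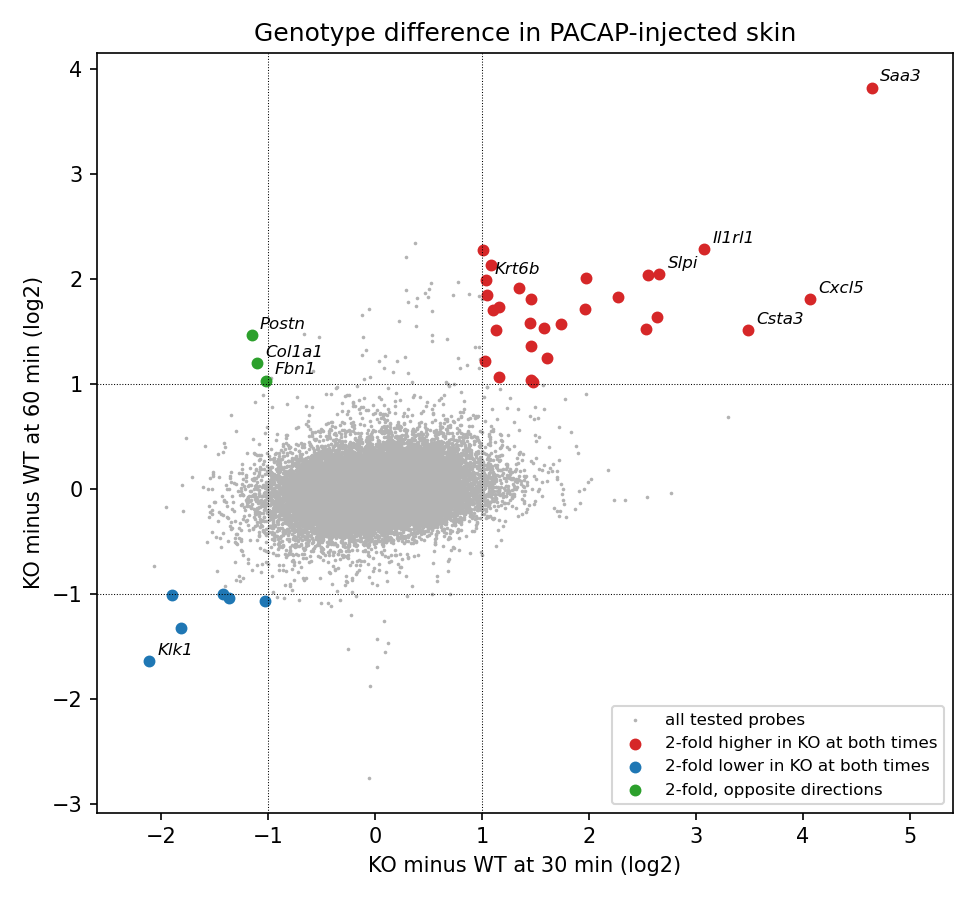
Each point is 1 tested probe, with the log2 difference KO minus WT in PACAP-injected skin at 30 min on the x axis and at 60 min on the y axis; dotted lines mark 2-fold. The 29 probes at the upper right and the 6 at the lower left passed 2-fold at both times, and 3 probes at the upper left, for Fbn1, Postn and Col1a1, passed it in opposite directions.

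Acute phase genes of skin and plasma held the largest mean difference of the 35 probes, that of Saa3. Saa3, a serum amyloid A gene expressed outside the liver during inflammation, had levels of 6.91 and 7.85 in WT at 30 and 60 min and of 11.55 and 11.67 in KO. Both KO samples were far above both WT samples, by 25.0-fold at 30 min and 14.2-fold at 60 min, which is 4.23 ± 0.24 on the log2 scale (limma estimate ± SE, adjusted p = 0.571). Its probe lies at chr7:53970389-53970448 (mm9). Saa1, the acute phase serum amyloid A made mostly by the liver, had 7.98 and 9.16 in WT and 10.62 and 10.80 in KO. It was higher in KO by 6.23-fold and 3.11-fold, also without overlap (adjusted p = 0.707). Saa2, the close neighbour of Saa1, had 6.85 and 7.86 in WT against 7.98 and 8.52 in KO. Saa1 and Saa2 are near-identical, so their probes may share transcripts. Haptoglobin (Hp), which binds free haemoglobin, had 10.10 and 10.28 in WT and 12.06 and 12.00 in KO, 3.91-fold and 3.29-fold higher (adjusted p = 0.592). Over 15 tested genes of liver plasma proteins and hepatocytes, a list that holds none of these genes, the median difference was 0.31 at 30 min and 0.03 at 60 min, against 0.02 and 0.01 over all tested genes. Its summed level was 12.45 to 12.47 in WT and 12.83 to 12.91 in KO. The part of liver RNA in the results was not tested.

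The 250 bases before the annotated start of Saa3 and Saa1, and of Slpi described below, are shown because these genes were among the largest differences without overlap and each holds a match to TTGCNNAA, the binding sequence of C/EBP factors. The sequences are those of RefSeq (GRCm38.p6), 5′ to 3′ on the minus strand, with the match in capitals.
Saa3 (chr7:46715677-46715926): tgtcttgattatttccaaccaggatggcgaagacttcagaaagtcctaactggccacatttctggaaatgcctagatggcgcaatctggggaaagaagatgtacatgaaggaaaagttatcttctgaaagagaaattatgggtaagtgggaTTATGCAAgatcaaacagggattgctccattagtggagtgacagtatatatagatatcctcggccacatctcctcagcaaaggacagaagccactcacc
Saa1 (chr7:46742981-46743230): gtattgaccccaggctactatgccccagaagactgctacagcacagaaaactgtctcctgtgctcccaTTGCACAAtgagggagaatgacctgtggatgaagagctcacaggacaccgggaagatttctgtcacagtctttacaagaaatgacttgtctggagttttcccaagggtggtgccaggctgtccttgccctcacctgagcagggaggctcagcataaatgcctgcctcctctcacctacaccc
Slpi (chr2:164356508-164356757): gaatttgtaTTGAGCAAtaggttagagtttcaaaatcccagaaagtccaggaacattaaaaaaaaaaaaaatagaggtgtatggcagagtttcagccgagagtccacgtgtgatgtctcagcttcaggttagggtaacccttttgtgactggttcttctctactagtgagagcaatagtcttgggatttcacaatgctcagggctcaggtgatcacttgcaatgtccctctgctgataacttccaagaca
The match of Saa1 reads as printed, while those of Saa3 and Slpi are on the opposite strand. The capitals begin 99 bases before the start in Saa3, 182 in Saa1 and 241 in Slpi. Of the 26 named genes that were 2-fold higher in KO at both times, 21 had such a sequence, and 7 of them held TTGCNNAA on either strand: Csta3, Il1rl1, Mmp3, Saa1, Saa3, Slpi and Stfa1. Over all 32851 promoter sequences 9.56% held it. The AP-1 letters TGANTCA were in 3 of the 21 (Mmp3, Ms4a7 and Sprr2e) and in 6.75% of all. The cAMP response element TGACGTCA was in 0 of the 21 and in 1.55% of all. The genes were chosen by their values and the counts are a description of these letters, not of binding.

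Secreted protease inhibitors and antimicrobial proteins of the epidermis formed a further group. Slpi, the secretory leukocyte protease inhibitor, had levels of 10.00 and 10.76 in WT and 12.65 and 12.80 in KO, so that both KO samples were above both WT samples. It was higher in KO by 6.31-fold at 30 min and 4.13-fold at 60 min, 2.35 ± 0.21 on the log2 scale (adjusted p = 0.592). In vehicle-injected skin the difference was -0.26 and -0.22. The stefin A genes encode inhibitors of cysteine proteases: Csta3 had 6.54 and 8.44 in WT and 10.03 and 9.95 in KO, and only 1 of the 2 arrays of the WT sample at 30 min read it well above background. Stfa2 had 7.42 and 7.54 in WT and 8.57 and 9.28 in KO. Stfa1 had 11.86 and 11.65 in WT and 12.95 and 13.78 in KO, but its other probe differed by only 0.16 and 0.42. Of 10 tested stefin A and related cystatin genes, 3 were 2-fold higher at both times and 7 did not overlap in that direction, against 0.138% and 20.8% of all tested genes. The stefin genes are near-identical copies and may share probes. 2610528A11Rik, which encodes a secreted peptide of mucosal and skin epithelium, had 9.62 and 10.12 in WT and 12.15 and 11.65 in KO. Among 16 antimicrobial effectors, Slpi alone was 2-fold higher at both times, 9 lay above WT and 2 below WT without overlap, against 20.8% and 19.1% of all tested genes, and the median difference was 0.62 at 30 min and 0.13 at 60 min. Lcn2, which binds bacterial siderophores, had 8.18 and 8.85 in WT against 9.71 and 9.53 in KO, and the beta-defensin Defb4 had 6.60 and 7.00 against 7.56 and 7.70. S100a8 and S100a9, the subunits of calprotectin, were higher in KO by 1.58 and 0.76 and by 1.02 and 0.87.

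Genes of wounded or stressed epidermis had the larger medians, and those of resting epidermis medians below 0 at 30 min. Krt6b, a keratin that appears at wound edges and in thick palmar epidermis, had 14.35 and 14.49 in WT and 15.38 and 16.48 in KO, 2.05-fold and 3.97-fold (adjusted p = 0.707). Its other probe differed by 0.22 and 1.61. Krt16, its partner, had 14.96 and 14.76 in WT and 15.64 and 16.19 in KO, and Krt17 had 12.22 and 12.95 against 13.27 and 13.92. Of the 4 wound keratins, 3 lay above WT without overlap, against 20.8% of all tested genes, and Krt6a overlapped. Their medians were 0.86 and 1.24. The small proline-rich proteins, which are cross-linked into the cornified envelope, had medians of 0.24 and 0.74, with 14 of 14 tested genes above 0 at 60 min, against 51.5% of all genes. Sprr2g had 6.59 and 7.57 in WT and 9.14 and 9.61 in KO, higher by 5.86-fold and 4.10-fold (adjusted p = 0.592). Sprr2e had 6.22 and 7.68 in WT and 7.81 and 9.21 in KO, where the WT sample at 60 min nearly reached the KO sample at 30 min. Both were well above background on 1 array of the WT sample at 30 min, and Sprr2 genes are similar enough to share probes. Lce3a, a late cornified envelope gene that is induced when the barrier is broken, had 8.29 and 9.21 in WT and 10.26 and 11.22 in KO, 3.93-fold and 4.03-fold higher (adjusted p = 0.592). Lce3e and Lce3f differed in the same direction by 0.79 and 1.15 and by 0.80 and 0.93. Over 33 cornified envelope and late differentiation genes the medians were -0.09 and -0.03. Over 9 keratins of palm and interfollicular epidermis they were -0.43 and 0.09, and Krt10 had 15.26 and 15.27 in WT against 14.10 and 15.10 in KO.

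**Figure D2:**
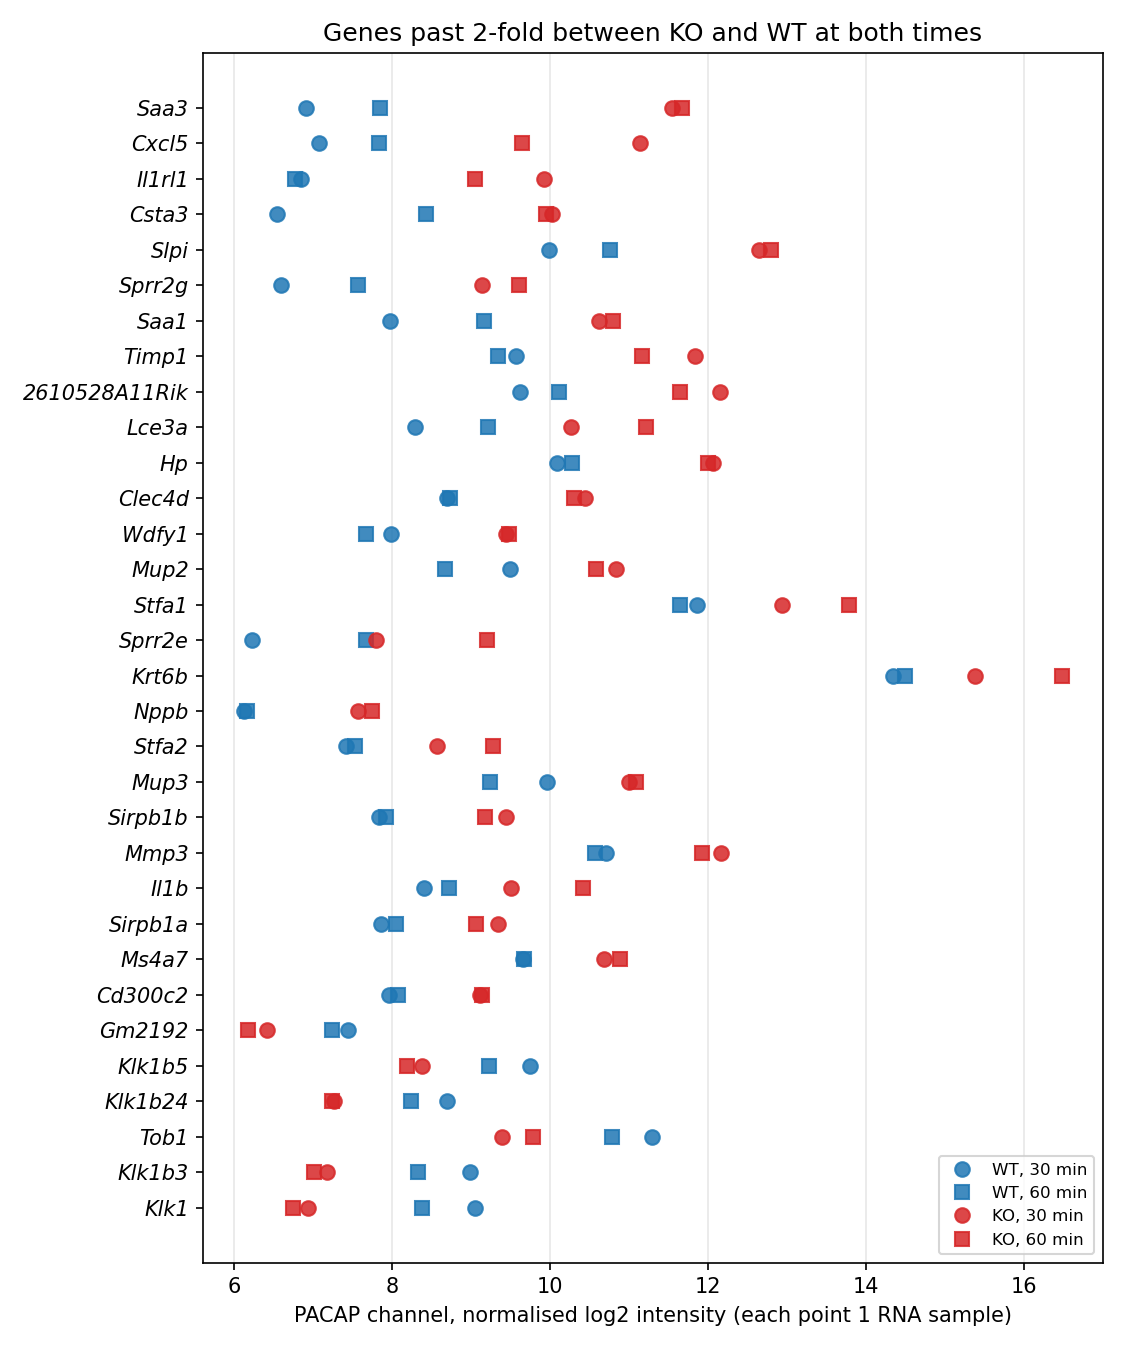
Levels of the named genes past 2-fold at both times in each of the 4 PACAP samples, as normalised log2 intensity, with WT in blue, KO in red, circles for 30 min and squares for 60 min; 1 probe is drawn per gene, and each point is the mean of 2 arrays. From Saa3 to Cd300c2 both KO samples lie to the right of both WT samples, and from Gm2192 to Klk1 to the left.

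Signals and receptors of inflammation varied in size. Cxcl5, a chemokine for neutrophils, had 7.08 and 7.84 in WT and 11.14 and 9.64 in KO, which was 16.7-fold higher at 30 min and 3.50-fold at 60 min (2.94 ± 0.55 on the log2 scale, adjusted p = 0.707). In vehicle-injected skin its difference was 0.05 and 0.32. The other 4 tested genes of the same list were smaller in their differences: Cxcl1 differed by 0.28 and 0.19, Cxcl2 by 0.59 and -0.33, Ppbp by 0.65 and 0.10 and the receptor Cxcr2 by -0.20 and -0.11. Il1rl1, which encodes ST2, the receptor of interleukin 33, had 6.85 and 6.77 in WT and 9.93 and 9.06 in KO, 8.45-fold and 4.87-fold (adjusted p = 0.592). Its other tested probe differed by -0.15 and 0.47, so the difference belongs to 1 of 2 probes. Il33 itself had 9.66 and 9.52 in WT and 10.09 and 10.16 in KO. Il1b had 8.40 and 8.72 in WT and 9.51 and 10.43 in KO, without overlap. Il6 had 8.39 and 9.36 in WT and 8.60 and 10.58 in KO, where the genotypes overlapped, and Tnf differed by -0.05 and -0.03. Of 17 tested interleukins, TNF and colony-stimulating factors, 1 was 2-fold higher at both times, 8 lay above WT and 0 below WT without overlap, against 0.138%, 20.8% and 19.1% of all tested genes. Cxcl9, which attracts T cells, had 5.97 in WT at 30 min, 9.05 in WT at 60 min, and 5.92 and 6.30 in KO. The WT sample at 60 min stood apart from the other samples, as it did for Igtp (10.39, against 8.70 to 8.84) and Cxcl10 (9.76, against 7.03 to 8.56), which are other genes induced by interferon. These 3 were the members of 31 tested interferon-inducible genes that were 2-fold lower in KO at 60 min. Of the 31 genes 13 were above 0 at 60 min, against 51.5% of all tested genes. Without overlap, 7 lay above and 5 below WT, against 20.8% and 19.1% of all tested genes, and the medians were 0.09 and -0.05.

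Markers of myeloid cells were measured beside these genes. Clec4d, a C-type lectin of neutrophils and macrophages, had 8.70 and 8.73 in WT and 10.44 and 10.31 in KO, 3.34-fold and 2.98-fold higher (adjusted p = 0.650). Sirpb1a and Sirpb1b, signal-regulatory proteins of myeloid cells with closely similar sequences, were higher by 1.02 to 1.61 in 3 probes and by 1.34 and 0.76 in the remaining Sirpb1b probe. Cd300c2 was higher by 1.16 and 1.07, and Ms4a7, a macrophage membrane protein, by 1.03 and 1.22. Of 31 tested neutrophil markers, 22 were higher in KO at 30 min and 28 at 60 min, against 51.8% and 51.5% of all tested genes, with a median of 0.21 at both times. Clec4d was 2-fold higher at both times, 17 did not overlap above WT and 2 below, against 20.8% and 19.1% of all tested genes. The summed level of the list was 14.36 to 14.40 in WT and 14.43 to 14.57 in KO. Ly6g, a defining surface protein of neutrophils, had 9.56 and 9.84 in WT and 10.81 and 9.96 in KO. Over 8 macrophage markers the medians were 0.26 and 0.20, with summed levels of 14.24 to 14.27 in WT and 14.30 to 14.41 in KO. More or fewer cells of a type and more or less RNA per cell cannot be told apart in these skin samples, and the part of cell numbers in the results was not tested.

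Genes of the matrix and its turnover were also among the members. Timp1, the inhibitor of metalloproteinases, had 9.57 and 9.34 in WT and 11.84 and 11.17 in KO, 4.83-fold and 3.56-fold higher (adjusted p = 0.592). Mmp3, stromelysin, had 10.71 and 10.57 in WT and 12.17 and 11.93 in KO. These were 2 of 14 tested metalloproteinase and inhibitor genes, against 0.138% of all tested genes that were 2-fold higher at both times. The other 12 held no further member past 2-fold at both times, and Timp2 (-1.32 and 0.06) and Timp3 (-1.11 and -0.11) were lower in KO at 30 min. The remaining members higher in KO were Nppb, the natriuretic peptide BNP, with 6.13 and 6.17 in WT and 7.58 and 7.75 in KO, Mup2 and Mup3, 2 transcripts without a gene symbol, and Wdfy1, which is described below. Nppb was well above background on 1 of 2 arrays in each WT sample. Mup2, a major urinary protein gene, had 9.50 and 8.67 in WT and 10.84 and 10.58 in KO. Mup3 was higher in KO by 1.04 and 1.85, and the many Mup genes are too alike for their probes to be told apart.

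Fewer genes were lower in KO, and tissue kallikreins made up 4 of the 6. Klk1, which releases kinins from kininogen, had 9.06 and 8.38 in WT and 6.94 and 6.75 in KO, 4.34-fold and 3.12-fold lower (log2 -1.88 ± 0.19, adjusted p = 0.679). Klk1b3 had 8.99 and 8.33 in WT and 7.18 and 7.01 in KO. Klk1b24 was lower by a log2 difference of -1.42 and -1.003 and Klk1b5 by -1.37 and -1.04. In each of these both KO samples lay below both WT samples. The kallikrein genes lie side by side on chromosome 7 and have similar sequences, and their probes lie between chr7:51447637-51447696 and chr7:51484170-51484325 (mm9). Tob1, a regulator that restrains cell division, had 11.30 and 10.79 in WT and 9.40 and 9.78 in KO (adjusted p = 0.707). The last member was Gm2192, with 7.45 and 7.25 against 6.42 and 6.18.

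The same genotype difference in vehicle-injected skin separated these members into groups. The 29 probes higher in KO had median differences of 1.47 and 1.72 with PACAP and of 0.25 and 0.51 with vehicle, and 28 of them differed more with PACAP than with vehicle at both times. For 13 of the 29 the vehicle difference was below 0.5 in size at both times, as for Slpi, Cxcl5, Stfa2 and Nppb. Since the members were chosen by their PACAP values, this order carries no test. Saa3 had 6.64 and 7.25 in vehicle-injected WT skin and 8.24 and 9.02 in KO, a difference of 1.59 and 1.77, smaller than with PACAP but above 2-fold. Wdfy1, an adaptor of endosomal Toll-like receptors, differed by 1.46 and 1.81 with PACAP and by 2.01 and 1.92 with vehicle. The PACAP samples read 7.99 and 7.68 in WT against 9.45 and 9.49 in KO, while its other 3 tested probes differed by -0.37 to 0.25. Of the 6 lower probes, 4 were at least 2-fold lower with vehicle at both times, and 2 differed more with PACAP than with vehicle at both times. The vehicle difference was -2.74 and -1.72 for Klk1, -2.50 and -1.46 for Klk1b3 and -1.90 and -0.60 for Tob1. Over these 6 probes its medians were -2.03 and -1.19, against -1.62 and -1.05 with PACAP. A limma fit of the PACAP difference minus the vehicle difference left 0 of 26348 probes with an adjusted p below 0.05, and 261, or 0.991%, with an unadjusted p below 0.05. The fit of KO against WT in vehicle-injected skin left 0 of 24897 probes with an adjusted p below 0.05. At an unadjusted p below 0.05 it held 3549 probes, more than the 1434 of 25969 in PACAP-injected skin.

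**Figure D3:**
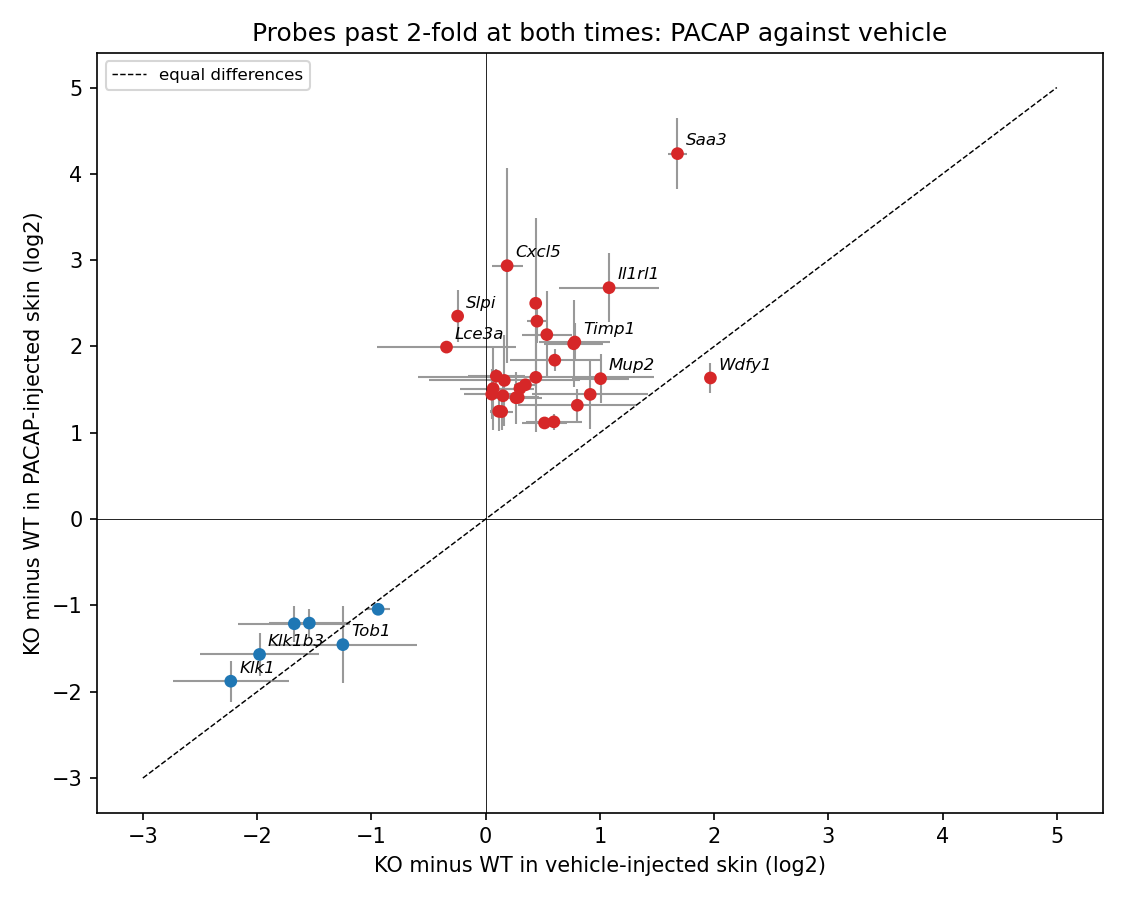
The 35 probes past 2-fold at both times, with the mean log2 difference KO minus WT over both times in vehicle-injected skin on the x axis and in PACAP-injected skin on the y axis; grey lines run from the value at 30 min to that at 60 min. Most red points (higher in KO) lie well above the dashed line of equal differences, with Wdfy1 below it, and the blue points (lower in KO) lie near it.

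Wdfy1 is among the genes known to be expressed differently in C57BL/6 substrains, as is Nnt, a mitochondrial transhydrogenase. Of the 3 Nnt probes, 2 were not well above background on any array, and the tested one had 9.07 and 9.13 in WT and 9.37 and 9.84 in KO, and a vehicle difference of 0.92 and 0.71. Entpd4, the third gene of that list, differed by -0.14 and -0.08. For the genes around Adcyap1r1 on chromosome 6, over 82 probes within 5 Mb, the medians were 0.05 and -0.01. An unadjusted limma p below 0.05 was held by 5 of them, against 5.52% of all tested probes. Of the 82, 0 passed 2-fold at both times, against 0.112% higher and 0.0231% lower of all tested probes. Shares this low leave a count of 0 among 82 probes uninformative, and medians cannot show differences that go both ways. Genetic background, slide and the loss of the receptor cannot be told apart.

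The receptor itself and its relatives differed little. Adcyap1r1 had levels of 8.26 and 8.76 in WT and 7.91 and 8.42 in KO, where the KO sample at 60 min was above the WT sample at 30 min. The difference was -0.36 and -0.34 (adjusted p = 0.707), and -0.31 and -0.11 in vehicle-injected skin. Where the probe lies relative to the deleted part of the gene is not given in the sources used here, so it does not check the genotype. Adcyap1, the PACAP gene, lay near background at 6.60 and 6.68 in WT and 6.70 and 6.79 in KO. Vipr1 had 9.94 and 9.44 in WT and 9.26 and 9.46 in KO by its brighter probe, while the other differed by 0.39 and 0.07. Vipr2 had 7.20 and 7.12 against 6.70 and 6.90. Vip was well above background on 1 of 8 arrays and was not tested.

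Genes behind the receptor are those that cAMP, calcium and MAP kinases act on. Of 30 tested genes of Gs and Gq signalling, 4 were above 0 at 30 min and 20 at 60 min, against 51.8% and 51.5% of all tested genes, with medians of -0.22 and 0.05. Gnas, the stimulatory G protein, had 12.38 and 12.13 in WT and 11.33 and 12.16 in KO, so the KO sample at 30 min was the low one. Over 13 targets of CREB, the transcription factor activated by cAMP, the medians were -0.60 and -0.04. Without overlap, 3 of these genes lay above and 5 below WT, against 20.8% and 19.1% of all tested genes. Nr4a1, a nuclear receptor induced within minutes, had 12.76 and 13.01 in WT and 11.92 and 12.83 in KO, and Crem, which feeds back on cAMP, had 8.72 and 9.09 against 9.58 and 9.42. Among 25 immediate early genes 0 lay above and 7 below WT without overlap, against 20.8% and 19.1% of all tested genes, and the medians were -0.21 and -0.11. Ccn1 was lower by a log2 difference of -0.44 and -0.69, Ier2 of -0.27 and -0.87 and Jun of -0.90 and -0.27. With vehicle the differences were 0.004 and -1.38 for Ccn1, -0.53 and -0.75 for Ier2 and -0.38 and -0.57 for Jun. Fos had 12.46 and 12.40 in WT and 12.59 and 10.94 in KO, and a vehicle difference of 0.78 and -1.39. Over 14 feedback genes of MAP kinase signalling 0 lay above and 8 below WT without overlap, against 20.8% and 19.1% of all tested genes. Feedback genes of NF-kB had medians of -0.22 and 0.27, with Bcl3 at -0.52 and 1.45. No gene of these lists passed 2-fold in 1 direction at both times. Of all tested genes 0.138% were 2-fold higher, and of all tested probes 0.0231% were 2-fold lower. The lists are too short to differ from such shares.

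Genes of the sweat gland lay lower in KO more often than higher. Of 20 tested genes of the eccrine gland and sweat secretion, 1 was above and 12 below WT without overlap, against 20.8% and 19.1% of all tested genes, and the medians were -0.45 and -0.12. The vehicle medians were -0.18 and -0.12. Aqp5, the water channel of the secretory cell membrane, had 14.11 and 14.13 in WT and 13.49 and 14.08 in KO by its brighter probe, and 10.67 and 10.97 against 10.26 and 10.57 by the other. Atp1b1, a subunit of the sodium pump, had 13.46 and 13.03 in WT and 12.08 and 12.54 in KO. Krt8, a keratin of secretory epithelium, was lower by a log2 difference of -0.72 and -0.38, and the potassium channel gene Kcnn4 of -0.53 and -0.52. With vehicle the differences were -0.49 and -0.15 for Krt8 and -0.65 and -0.40 for Kcnn4. Car2, carbonic anhydrase 2, was the exception above WT, with 9.91 and 10.08 in WT and 10.71 and 10.82 in KO. Ptgs2, the inducible cyclooxygenase, had 8.30 and 8.10 in WT and 7.39 and 7.65 in KO. It was lower without overlap, by a log2 difference of -0.92 and -0.44 (adjusted p = 0.707), and with vehicle by -0.18 and -0.68. Over 16 genes of prostaglandin synthesis and reception the medians with PACAP were -0.05 and -0.06. Kcnn2 stood well above background on 4 of 8 arrays, never on both arrays of a sample, and was not tested. Cacna1s, the calcium channel of muscle, had 11.86 and 10.92 in WT and 10.50 and 11.02 in KO, while its other probe differed by -0.56 and -0.14. Chrna1, the muscle acetylcholine receptor subunit, differed by 0.04 and 0.16, or by -0.57 and 0.02 by its other probe. Trub2 had 11.70 and 11.60 in WT and 9.74 and 11.44 in KO by 1 probe, and differed by -0.14 and -0.17 by the other tested one. Gapdh was lower in KO at both times in all 8 of its probes, by -0.64 to -0.31 at 30 min and by -0.43 to -0.01 at 60 min.

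**Figure D4:**
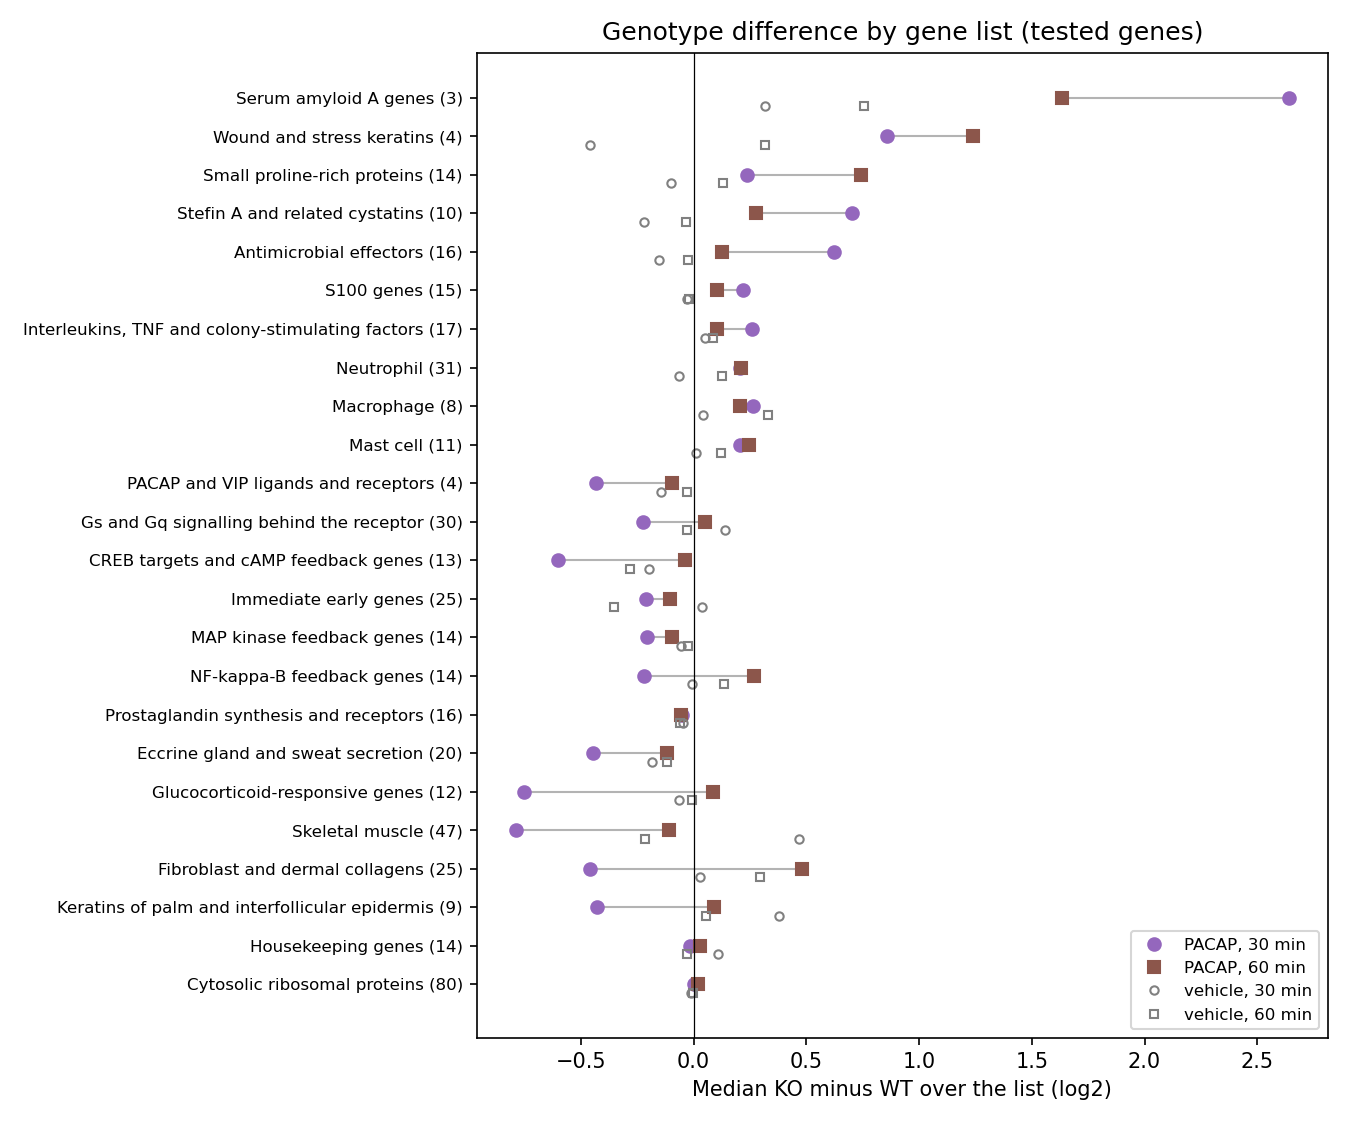
Median log2 difference KO minus WT over the tested genes of each list, with the number of genes in brackets; filled symbols stand for PACAP-injected and open grey symbols for vehicle-injected skin, circles for 30 min and squares for 60 min. Among the filled symbols, those of serum amyloid A genes and wound keratins lie furthest to the right at both times, while those of skeletal muscle, glucocorticoid-responsive and CREB target genes lie below -0.5 at 30 min alone.

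Several lists differed at 30 min and hardly at 60 min. Skeletal muscle genes had medians of -0.79 and -0.11 over 47 genes, of which 0 lay above and 29 below WT without overlap, against 20.8% and 19.1% of all tested genes. At 30 min 14 of them were 2-fold lower, against 1.32% of all. Atp2a1, the calcium pump of fast muscle, had 11.08 and 11.02 in WT and 9.01 and 10.29 in KO, and Acta1, skeletal actin, had 14.26 and 14.20 against 12.71 and 13.98. The summed level of the muscle list was 18.65 to 18.98 in WT and 18.07 to 18.60 in KO. In vehicle-injected skin its medians were 0.47 and -0.22. Of 12 genes responsive to glucocorticoids, 1 was above 0 at 30 min and 7 at 60 min, against 51.8% and 51.5% of all tested genes. Their medians were -0.75 and 0.08. Without overlap, 1 lay above and 5 below WT, against 20.8% and 19.1% of all tested genes. Klf9 had 10.61 and 9.47 in WT and 9.10 and 9.60 in KO, and Fkbp5 had 9.94 and 10.22 against 8.64 and 10.26. Pdk4, with 10.04 and 9.43 against 8.60 and 8.88, and Angptl4, with 9.94 and 9.49 against 10.56 and 10.36, were among those without overlap. The housekeeping genes had medians of -0.01 and 0.03, and 80 ribosomal protein genes of 0.00 and 0.02.

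Fibroblast and dermal collagen genes differed in opposite directions at the 2 times. Of 25 tested genes, 2 were above 0 at 30 min and 24 at 60 min, against 51.8% and 51.5% of all tested genes. The medians were -0.46 and 0.48. Col1a1, a chain of the main collagen of dermis, had 13.01 in WT against 11.91 in KO at 30 min. At 60 min its WT level was 11.50 and its KO level 12.70. Postn, a matrix protein of wounds, had 10.26 and 9.10 at 30 min and 8.82 and 10.29 at 60 min. Fbn1, the main protein of microfibrils, was lower by a log2 difference of -1.02 and then higher by 1.03. For Col1a1 and Fbn1 both KO samples lay between the WT samples, and for Postn the KO sample at 60 min was just above the WT sample at 30 min. In vehicle-injected skin the medians of the list were 0.03 and 0.29. There Col1a1 differed by 0.26 and 0.84, Postn by -0.26 and 2.31 and Fbn1 by -0.39 and 0.91. Of all tested probes, 3 or 0.0116% passed 2-fold at both times in opposite directions.

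**Figure D5:**
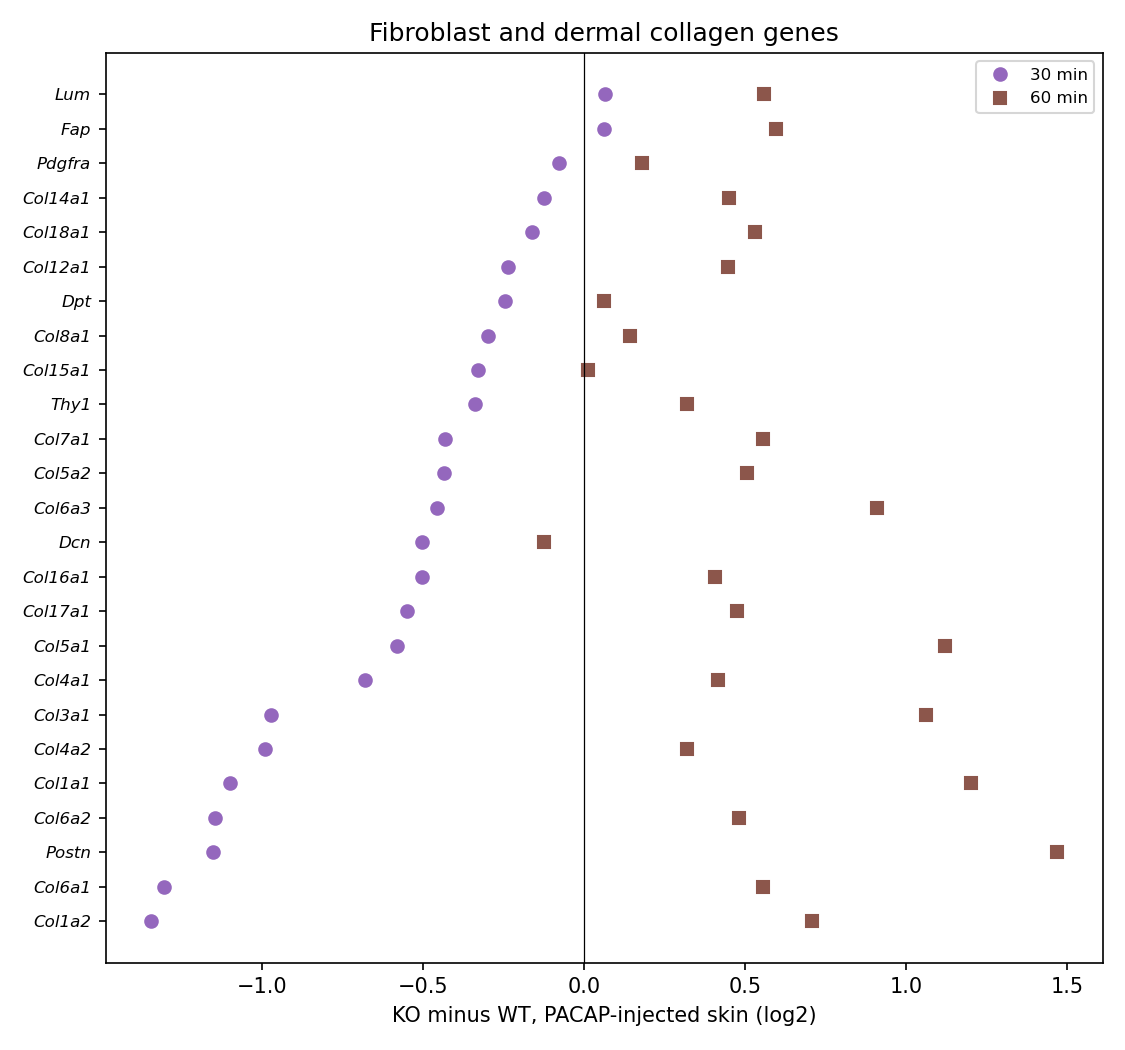
Log2 difference KO minus WT in PACAP-injected skin for each of the 25 tested fibroblast and dermal collagen genes, with circles for 30 min and squares for 60 min. The circles lie left of 0 except for Lum and Fap, and the squares right of 0 except for Dcn.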

How the data were processed

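RNA of forepaw skin was labelled with Cy3 or Cy5 and hybridised to 8 Agilent mouse arrays, each with a PACAP and a vehicle sample. Groups, dyes and times were taken from the labels. The deposited intensity values, mean signals and local backgrounds of each spot, were extracted by the authors with Agilent Feature Extraction, version 12.0.3.1 per the file headers and 11.0.1.1 per the labels. The deposited processed intensity values, which the authors' software had corrected and dye-normalised within each array, were used as an alternative. The deposited series matrix of log ratios and the software's own ratios were not used. Precision is limited by the number of RNA samples, since the arrays of a dye swap repeat the same RNA.

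Backgrounds were corrected with normexp (offset 50), dyes normalised by loess within arrays with control and outlier spots given no weight, and channels scaled with Aquantile between arrays, in limma 3.58.1 with R 4.3.3. Spots of a probe and the 2 arrays of a dye swap, which share the same RNA extracts, were averaged. Of 39429 probes, those well above background on both arrays of at least 1 PACAP sample were tested, and 7 probes with outlier spots alone in a sample were dropped. The model (genotype and time, 4 samples, residual degrees of freedom 1) used lmFit and eBayes with Benjamini-Hochberg adjustment at 0.05. The vehicle samples, and the PACAP minus vehicle values, were fitted likewise. KO and WT samples came from different mice, but how the injected mice were divided among the RNA samples is not given in the sources used here. The p-values therefore measure only the spread between these samples. With 1 sample per genotype and time, that spread is the change of the KO minus WT difference between the 2 times, moderated by eBayes. The same holds for the standard errors. The replicate number in the labels marks the dye orientation of the same RNA and pairs nothing else.

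A gene in a list was read by its brightest tested probe, with names and mm9 coordinates of the files. Promoter sequences are those of RefSeq. Genes were named as the 10 largest differences in each direction past 2-fold at both times and above background on every array, the 10 smallest p, genes of the receptor system or named by the study, up to 5 genes per direction above background in 1 genotype only (0 qualified), and the most different members of each list. The other members past 2-fold at both times, and genes shown as contrasts, were chosen after their values were seen. The members, lists and tests were chosen with earlier results of these data known. Alternatives were another or no background filter, offset 16, processed signals, other scalings, outlier spots kept, trended and robust eBayes, no time term, 1 array per sample, each sample left out, other fold limits, all probes of a gene averaged, and the dye as a block. The fit was tested on simulated data. Python 3.11.15 with pandas 2.3.3, numpy 2.4.6 and matplotlib 3.10.9 was used for the counts and plots.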

Additional observations from a re-analysis of the deposited data

Results flagged for a closer look

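The fibroblast and dermal collagen genes lay lower in KO than in WT at 30 min and higher at 60 min. Their median log2 difference KO minus WT was -0.46 at 30 min and 0.48 at 60 min over 25 genes, each from 1 KO and 1 WT sample. The difference between the times was not tested. No group held enough samples to look for a single sample far from the others.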

How the results depend on the processing

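No probe passed an adjusted p of 0.05 in the comparison of KO with WT, without a time term, without the filter on dim probes, with quantile normalisation, or with outlier spots kept. Calls appeared under 5 other settings: 16 probes where every array had to be above background, 8 with channel medians set equal, 48 with an offset of 16, 944 with processed signals and 600 with trended and robust eBayes. All 16 and all 8 were among the 35 probes past 2-fold at both times, as were 34 of the 48, 35 of the 944 and 35 of the 600. With the dye number as a replicate block over 8 channels and the RNA sample as a random block, 77 probes passed, of which 34 were among the 35. That fit enters both arrays of each RNA sample as separate values. With 1 array per sample, or without 1 sample, the count lay between 0 and 2. It was 1 without the WT sample at 30 min and 2 without the WT sample at 60 min, where the lone sample is assumed to vary like the other genotype. The 35 probes past 2-fold at both times became 337 with processed signals (241 higher and 96 lower, against 29 and 6), 56 with an offset of 16, 180 at 1.5-fold and 10 at 3-fold. They were between 33 and 37 with 1 array per sample. The causes were not tested, apart from the fold limits, which set the count. With 1 sample left out, Cxcl9 lay between -2.94 and 0.14 (0.14 without the WT sample at 60 min), Il6 between -0.28 and 1.70 (-0.28 without the KO sample at 60 min) and Chrna1 between -0.023 and 0.22. Chrna1 turned to -0.0028 with processed signals and to -0.088 over all its probes. List medians moved by more than the spread between the times in 49 of 490 cases. The vehicle fit and the fit of the difference left 0 probes with and without a time term. Signal over background limits Csta3, Sprr2e, Sprr2g and Nppb in WT.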
